A study of Mus musculus with 16 samples.

Results

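The account compares adipocyte precursors (APCs) with smooth muscle cells (SMCs), 2 populations of Pdgfrb-expressing cells from the fat of young mice. Its members are the 4 APC and the 4 SMC libraries, 8 of the 16 libraries of the study, taken by their titles. All cells came from the epididymal white adipose tissue of C57BL/6 mice at postnatal day 7 and were isolated as Pdgfrb-positive cells by flow cytometry, with no treatment named. The other 8 libraries are fibro-inflammatory progenitors (FIPs) and mesothelial-like cells (MLCs), and their values are given only beside those of the 2 populations compared. The surface markers that divided the Pdgfrb-positive cells are not named in the labels. The labels do not say whether the libraries of a population came from separate animals or sorts, and the p-values below therefore reflect library-to-library spread that could be technical.

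Pdgfrb codes for a receptor of platelet-derived growth factor. It is carried by mural cells, the smooth muscle cells and pericytes that wrap blood vessels, and by stromal cells that lie close to vessels and include the progenitors of fat cells. Adipocyte precursors turn on the nuclear receptor Pparg and then the genes of lipid uptake and storage, whereas smooth muscle cells assemble a contractile apparatus of smooth muscle actin and myosin, much of it under the control of the transcription factor SRF and its partner myocardin. In the fat depot at this age the first adipocytes are still being formed, and the comparison sets the 2 programmes side by side in cells of 1 tissue.

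All values are normalised read counts per gene, as deposited. Recovered reads ran from 9204654 to 27528365 per library, and SMCs replicate 3, with the fewest, and APCs replicate 4, with 11223980, were the shallowest. Pearson correlations across genes on the log2(value + 1) scale lay between 0.971 and 0.994 among APC libraries, between 0.975 and 0.988 among SMC libraries and between 0.904 and 0.929 across the 2 populations (genes are not independent replicates). The first principal component of the 8 libraries held 74.3% of the variance and parted the populations. The second, with 9.48%, set APCs replicate 4 (51.5) apart from the other APC libraries (-25.3 to -13.5), and each count below was also taken without that library.

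A total of 14270 genes reached a value of 10 in 4 or more of the 8 libraries. Of these, 1633 (11.4%) were called higher in SMCs and 524 (3.67%) higher in APCs, together 2157 (15.1%), where a call needs 2 things, an adjusted p under 0.05 (limma, Benjamini-Hochberg) and a difference of at least 1 on the log2(value + 1) scale. The calls higher in SMCs were larger, with a median log2 difference of 1.89 against 1.54, and 326 of them exceeded 8-fold, against 56 of the calls higher in APCs. The median log2 difference of all genes tested, APCs minus SMCs, was -0.003. Quantile normalization evened the split, calling 890 genes on the APC side and 1199 on the SMC side (42.6% of calls higher in APCs, against 24.3% in the main test). Without APCs replicate 4, 521 genes were higher in APCs and 1614 higher in SMCs, and 2006 of the 2157 calls (93.0%) were made again. The values of the 4 APC and the 4 SMC libraries did not overlap for 6290 genes (44.1% of those tested), with APCs above for 3047 (21.4%) and SMCs above for 3243 (22.7%).

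**Figure D1:**
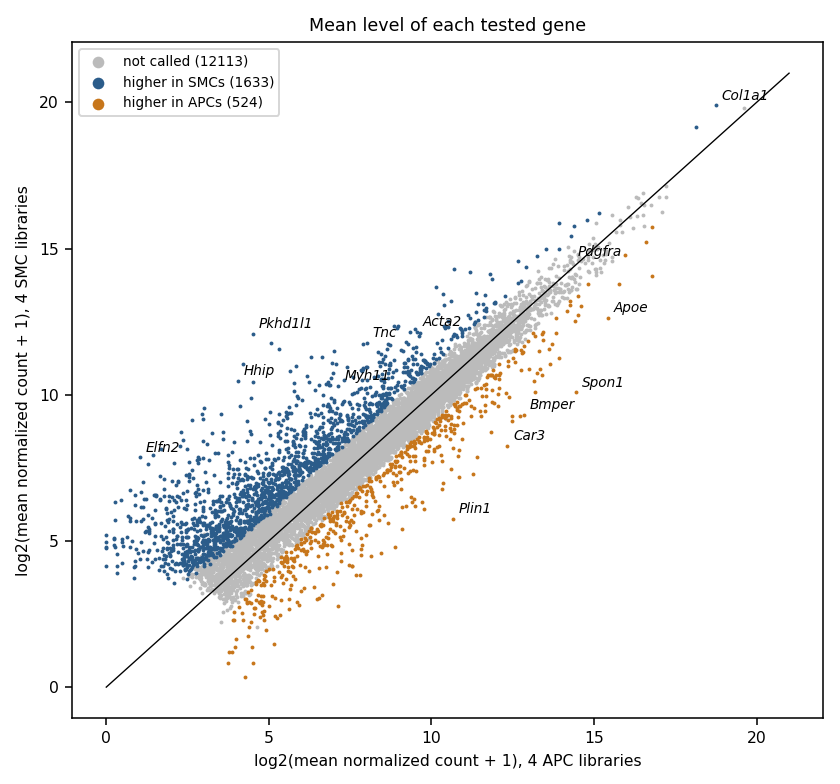
The log2 of the mean normalised count + 1 of each of the 14270 genes tested, in the 4 APC libraries (horizontal axis) and the 4 SMC libraries (vertical axis), with the diagonal as a line. The 1633 genes called higher in SMCs lie above the diagonal and the 524 called higher in APCs lie below it. Some genes of the text are named, Plin1 below the diagonal and Pkhd1l1 and Hhip above it.

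The contractile genes of smooth muscle were higher in SMCs for the larger part of the list. Of 29 tested members, 16 were called higher in SMCs, against 11.4% of all genes. Only 1 was called higher in APCs, near the share of 3.67% over all genes. The median log2 difference was -1.22 (APCs minus SMCs). Leaving out APCs replicate 4 gave the same counts. In 12 of the 16 members the lowest SMC value was that of SMCs replicate 4. That library was also the most frequent lowest one over all, in 337 of 887 genes called higher in SMCs with an SMC mean of at least 100. The summed level of the 29 genes was 54047 to 57741 in APCs, 74230.4 to 88735 in SMCs and 80098 to 82438 in MLCs, so that the MLC libraries lay inside the SMC range.

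Acta2 (chr19:34240336-34255585 on GRCm38), the smooth muscle actin, stood at 221, 218, 156 and 2388 normalised counts in APCs replicates 1 to 4 and at 5235, 4169.9, 5858 and 2885 in SMCs replicates 1 to 4. The SMC libraries were all above the APC libraries, but APCs replicate 4 lay near the lowest SMC library. The log2 difference was 3.58 ± 0.65 (SE; limma adjusted p = 0.000652) and became 4.48 ± 0.20 without APCs replicate 4. Cnn1, calponin, which binds actin filaments in smooth muscle, was at 9.30, 6.04, 7.15 and 116 in APCs and 213, 263, 303 and 101 in SMCs. Here APCs replicate 4 lay above SMCs replicate 4, so that the groups overlapped, and the log2 difference was 3.66 ± 0.73 (adjusted p = 0.00124). Tagln, transgelin, overlapped in the same way, with 318, 194, 281 and 1463 in APCs and 2250.1, 1747, 2869 and 1122 in SMCs.

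Other contractile genes parted the populations without that exception. Myh11, the smooth muscle myosin heavy chain, was at 143, 176, 117 and 125 in APCs and 1446, 1633, 1289.5 and 681 in SMCs, a log2 difference of 3.11 ± 0.23 (adjusted p = 2.68e-07). The 4 APC values lie close together, and the lowest SMC library, replicate 4, is still far above them. Pdlim3, a LIM protein of the actin cytoskeleton, was at 112, 124, 113 and 140.1 in APCs and 1963, 2987, 1407 and 2329.7 in SMCs, a log2 difference of 4.09 ± 0.18 (adjusted p = 3.76e-09). Casq2, a calcium store protein, was at 2.54, 10.1, 1.43 and 10.4 in APCs and 145, 457, 57.6 and 145 in SMCs, with SMCs replicate 2 the highest and replicate 3 the lowest. Pgm5, a protein of the muscle cell membrane, averaged 426 ± 21.1 in APCs and 2094 ± 841 in SMCs (SD, n = 4 each).

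More general cytoskeletal members differed less. Myl9, the regulatory light chain of smooth muscle myosin, averaged 939 ± 174 in APCs and 2169.9 ± 109.8 in SMCs, Actn1, which cross-links actin, 1075 ± 33.97 and 2668 ± 151, and Tpm1, a tropomyosin, 2516 ± 293 and 5472 ± 297 (SD, n = 4 each). Their log2 differences were 1.22 ± 0.11, 1.31 ± 0.07 and 1.13 ± 0.08 (SE), all called. Not every member followed. Mylk, the kinase that starts contraction, averaged 5006 ± 395 in APCs and 3669 ± 411 in SMCs, below the size needed for a call (log2 difference 0.45 ± 0.09 higher in APCs, adjusted p = 0.000997). Des, the intermediate filament desmin, was higher in SMCs by only 0.51 ± 0.10. Itga8, an integrin subunit of smooth muscle, was the 1 member called higher in APCs, with 1279.6, 1433, 1478 and 1361 in APCs against 441, 298, 478 and 331 in SMCs. In bulk libraries such as these, fewer cells of a type and less RNA per cell cannot be told apart.

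**Figure D2:**
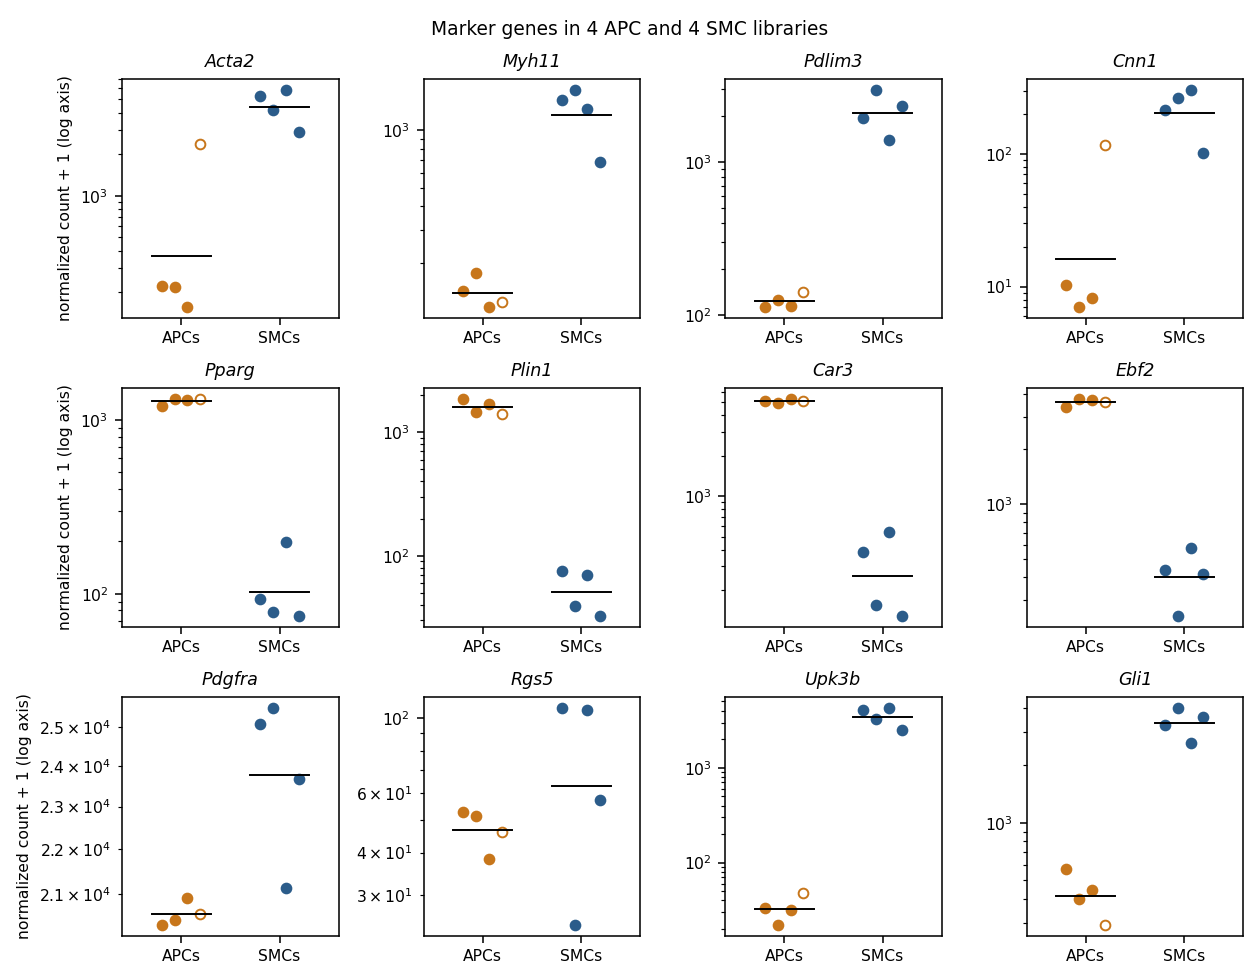
Normalised counts (value + 1, log axis) of marker genes in each of the 8 libraries, with 1 point per library, the open circle for APCs replicate 4 and a line at the geometric mean of each group. The points of Pparg, Plin1, Car3 and Ebf2 separate in favour of APCs and those of Myh11, Pdlim3, Upk3b and Gli1 in favour of SMCs, and for Acta2 the open circle lies near the lowest SMC library.

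SRF binds a short promoter motif, the CArG box (CC, then 6 A or T, then GG), that is known from many contractile genes, and the promoters of the genes were searched for it on both strands. RefSeq promoter sequence on GRCm38.p6, 250 bases before to 50 bases after each start, was matched for 10962 of the 14270 genes, and 166 of these (1.51%) held a box. It was found in 21 of 1161 genes higher in SMCs (1.81%), in 5 of 381 genes higher in APCs (1.31%) and in 3 of 26 contractile genes. A match describes the letters only, and a promoter with none says nothing about the factor. Of the contractile genes called higher in SMCs, Myl9 was the only one with a box in its window. Pdgfc, which codes for a ligand of Pdgfra and is described below, also held one. The 250 bases before the start of both genes, RefSeq GRCm38.p6, plus strand, are shown 5′ to 3′ with the box in capitals, to set the motif in its place: it begins 161 bases before the start of Myl9 (chr2:156775214-156775463) and 17 bases before that of Pdgfc (chr3:81036166-81036415).
Myl9: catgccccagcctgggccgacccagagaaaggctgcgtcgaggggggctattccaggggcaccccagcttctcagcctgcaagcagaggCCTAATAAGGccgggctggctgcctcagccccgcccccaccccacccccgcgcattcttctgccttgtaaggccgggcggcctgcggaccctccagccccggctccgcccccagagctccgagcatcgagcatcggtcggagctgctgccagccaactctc
Pdgfc: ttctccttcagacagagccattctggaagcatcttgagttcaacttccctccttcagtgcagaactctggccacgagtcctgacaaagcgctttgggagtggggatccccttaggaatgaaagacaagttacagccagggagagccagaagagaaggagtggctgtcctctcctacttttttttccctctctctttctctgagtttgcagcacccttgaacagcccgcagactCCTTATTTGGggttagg
For Myl9 the values on either side were 852, 762, 977 and 1164 in APCs and 2213, 2301, 2114 and 2052 in SMCs, and for Pdgfc 270.5, 284, 312 and 365 and 957, 1119, 895 and 1174, so that neither gene's groups overlapped.

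Of 15 tested transcription factors of smooth muscle, 7 were called higher in SMCs and 1 higher in APCs, against 11.4% and 3.67% of all genes. The median log2 difference was -0.69. Without APCs replicate 4, 6 were higher in SMCs. The summed level of the list was 9147 to 9854 in APCs, 12231 to 12684 in SMCs and 15197 to 16026 in MLCs. Klf5, a zinc finger factor active in growing smooth muscle, was at 73.5, 52.4, 57.9 and 50.1 in APCs and 784, 1139, 974 and 904 in SMCs, a log2 difference of 4.002 ± 0.15 (SE; limma adjusted p = 1.03e-09). The lowest SMC library lay far above the highest APC library. Foxs1, a forkhead factor known from pericytes, was at 50.7, 50.4, 44.3 and 24.2 in APCs and 144, 157, 169 and 221 in SMCs, and Foxc1, a second forkhead factor, at 74.4, 78.5, 72.2 and 81.3 and 138, 192, 179 and 195. Mrtfb, a coactivator of SRF, averaged 698 ± 99.97 in APCs and 1399 ± 119 in SMCs, just past the size for a call (log2 difference 1.01 ± 0.11). It lost the call without APCs replicate 4 (-0.91, APCs minus SMCs), without SMCs replicate 1 (-0.96) and without SMCs replicate 2 (-0.997). Srf itself was at 2122 ± 358 and 2797 ± 221, a difference of 0.41 ± 0.11 that was too small for a call. Myocd, which codes for myocardin, rested on 3 or fewer reads in all 4 APC libraries together and was at 53.7, 39.5, 12.8 and 18.4 in SMCs, a low level in all of them. Gata4, a zinc finger factor that was 22.8, 35.2, 31.5 and 41.5 in APCs and 106, 233, 154 and 53.1 in SMCs, overlapped in no library. Tbx18, known as a mural cell factor, went the other way, at 381, 367, 362 and 465 in APCs and 220.1, 165, 164 and 101 in SMCs (log2 difference 1.31 ± 0.20, adjusted p = 0.000131).

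The SMC label comes from the sample titles, and pericyte markers were set beside it. Of 16 pericyte genes tested, 4 were called higher in SMCs and 4 higher in APCs, against 11.4% and 3.67% of all genes. The median log2 difference was -0.24, and without APCs replicate 4 the counts were 3 and 2. The call count higher in APCs was also 2 without SMCs replicate 2. Cspg4, the proteoglycan NG2, was at 387, 465, 350.3 and 246 in APCs and 1067, 1228, 892 and 953 in SMCs, and Ednra, the endothelin receptor of smooth muscle, at 591, 578, 623 and 647 and 1728, 2910.5, 1309 and 1956, both called (log2 differences 1.54 ± 0.17 and 1.64 ± 0.18). The best known pericyte marker, Rgs5, was low and not called, with 51.6, 50.4, 37.2 and 44.96 in APCs and 106, 23.5, 105 and 56.2 in SMCs (log2 difference 0.44 ± 0.40, adjusted p = 0.391, higher in SMCs but in APCs under quantile normalization). Abcc9 and Kcnj8, subunits of a potassium channel of mural cells, differed by 0.24 ± 0.08 and 0.54 ± 0.15, higher in SMCs and too little for a call. Higd1b was at 0 in all 4 SMC libraries. Notch3, a receptor of mural cells, was higher in APCs, with 4812, 4321, 4879 and 3531 against 2111, 1373, 1729 and 1710.5 in SMCs, and so was Vtn, vitronectin, with 828, 879, 981 and 837 against 64.2, 44.8, 119.6 and 37.8 (log2 differences 1.35 ± 0.13 and 3.85 ± 0.27). The contractile genes called were thus nearly all on the SMC side. The pericyte genes called were divided equally, where 75.7% of the calls over all genes were on the SMC side. These calls do not settle what the SMC libraries held. The contractile sum of MLCs lay inside the SMC range, and Pdgfra, given below, was not lower in SMCs than in APCs.

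Of the 24 tested receptors and channels that set vessel tone, 7 were called higher in SMCs and 3 higher in APCs, against 11.4% and 3.67% of all genes (median log2 difference -0.21). Without APCs replicate 4, 7 and 1 were called, and the 1 is near the background share. Cacna1h, a T-type calcium channel, was at 244, 217, 217 and 150.4 in APCs and 1333, 1160.1, 873 and 973 in SMCs, a log2 difference of 2.39 ± 0.16 (adjusted p = 1.12e-07). Kcnma1, the large-conductance potassium channel that relaxes smooth muscle, was at 49.9, 59.4, 42.9 and 36.3 in APCs and 345, 319, 260.5 and 237 in SMCs, and Cacna1c, the L-type calcium channel, at 441, 377, 320.3 and 266 and 980.3, 920.0, 1063 and 806. In all 3 channels the SMC libraries lay above every APC library. Ano1, a calcium-gated chloride channel, averaged 74.1 ± 19.9 in APCs and 1389 ± 395 in SMCs, but its level in MLCs was higher still, at 11495 ± 272 (SD, n = 4). Agtr2, an angiotensin receptor, was higher in APCs (5125, 6569, 5012 and 7406 against 2851, 2942, 2415 and 3306, log2 difference 1.06 ± 0.13), as were Adra1b, an adrenergic receptor (247, 219, 252 and 188 against 70.5, 43.8, 76.9 and 62.3), and Npr3, the clearance receptor of natriuretic peptides (1067, 1099, 1027 and 1239.8 against 546, 566, 515 and 532). Agtr2 and Npr3 fell below the size for a call without APCs replicate 4 (0.95 and 0.98), and Agtr2 also without SMCs replicate 3 (0.97).

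The receptors that define the sort or mark progenitors were present in both populations. Pdgfrb was at 4489.6, 4804, 4870.5 and 4705 in APCs and 4165, 3435, 4121 and 3429 in SMCs, a log2 difference of 0.32 ± 0.08 (adjusted p = 0.00489), too small for a call. Pdgfra, a receptor of fibroblasts and adipose progenitors, was at 20330.2, 20427, 20899 and 20565 in APCs and 25058, 25503, 21130.3 and 23662 in SMCs. Its SMC values were all above its APC values, but by a log2 difference of only 0.21 ± 0.08 (adjusted p = 0.043). Ly6c1, a surface antigen of fibro-inflammatory progenitors, was at 93.8, 79.6, 71.5 and 133 in APCs and 106, 90.7, 149 and 84.8 in SMCs and overlapped between them, against 2759.9 ± 268 in FIPs. Cd9, a tetraspanin, was at 65.1, 77.5, 93.6 and 135 in APCs and 1229.8, 1364, 1196 and 1358 in SMCs, far apart in every library (log2 difference 3.83 ± 0.18, adjusted p = 5.6e-09).

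The genes of fat cell differentiation and lipid storage were higher in APCs. Of 32 tested members, 15 were called higher in APCs, against 3.67% of all genes, and 1 higher in SMCs, against 11.4%. The median log2 difference was 0.85, and the counts were the same without APCs replicate 4. Among the transcription factors, Pparg (chr6:115360879-115490404), the nuclear receptor that drives adipogenesis, was at 1200.2, 1325, 1293 and 1311 in APCs and 91.6, 77.9, 196 and 73.6 in SMCs, a log2 difference of 3.65 ± 0.24 (SE; limma adjusted p = 1.01e-07). APC values lay within a narrow band and SMCs replicate 3 was the highest SMC library. Cebpa, its partner, was at 3278, 3364, 3288 and 2824 in APCs and 805, 736, 984 and 718 in SMCs (log2 difference 1.98 ± 0.10), and Cebpd, an earlier factor of the same family, at 8059.7 ± 960.4 and 3681 ± 211 (log2 difference 1.12 ± 0.09).

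Genes that act on lipid followed. Plin1 (chr7:79721164-79732904), the coat protein of the fat droplet, was the gene with the largest difference in favour of APCs, at 1867, 1466, 1686 and 1411 in APCs and 73.7, 38.4, 68.3 and 31.7 in SMCs (log2 difference 4.98 ± 0.23, adjusted p = 5.6e-09). Cd36, a fatty acid transporter, was at 1550.1, 1113, 1598 and 1929.8 in APCs and 145, 119.5, 241 and 202 in SMCs, and Lpl, lipoprotein lipase, at 47403, 43636, 59957 and 70435 and 13778, 12066, 15282 and 15212. In each of these the lowest APC library was well above the highest SMC library. Fabp4, a fatty acid carrier, overlapped in no library but was more spread, with 1823, 1267, 2029 and 2889 in APCs and 568, 329.8, 803 and 401 in SMCs. Car3, an abundant enzyme of fat cells, was at 5141, 4986, 5337 and 5124 in APCs and 382, 155, 538 and 128 in SMCs, with SMCs replicates 1 and 3 above replicates 2 and 4. The same order, replicates 3 and 1 above 2 and 4, held for Adipoq, the adipocyte hormone, in SMCs (181, 83.2, 286 and 77.7), which overlapped APCs (239, 171, 234 and 398) and was not called (log2 difference 0.87 ± 0.37 higher in APCs, adjusted p = 0.0715). Without SMCs replicate 3 Adipoq was called, at 1.23 (adjusted p = 0.00892, in a range from 0.00813 to 0.201 over its alternatives).

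Some members were not called. Fasn, fatty acid synthase, averaged 7355 ± 1512 in APCs and 5936 ± 550.3 in SMCs (adjusted p = 0.101), and Scd1, a desaturase, 1744 ± 442 and 2527 ± 639.7, higher in SMCs by a log2 difference of 0.53 ± 0.18. Mgll, the lipase that completes the breakdown of stored fat, was the 1 member called higher in SMCs, at 286, 199, 278 and 268 in APCs and 1355, 1443, 1486 and 1570.5 in SMCs (log2 difference 2.51 ± 0.11). Of 7 tested markers of the mature adipocyte, 4 were called higher in APCs, against 3.67% of all genes. They were Plin1, Lipe, Cidec and Retn, the last 2 at low levels (30.9 ± 7.94 and 37.4 ± 9.21 in APCs). Cfd, adipsin, was higher in SMCs and is described with APCs replicate 4. The summed level of the 8 genes of that list was 2035 to 2668 in APCs and 501 to 1456 in SMCs. The DR1 motif that PPAR receptors bind (2 copies of AGGTCA with 1 base between them) was searched in the RefSeq promoters as above, on both strands. With up to 2 mismatches it was found in 3.37% of all promoters, in 4.46% of those of genes higher in APCs and in 2 of 22 on the adipocyte list, Cd36 and Plin2, and without mismatches in 5 of 10962 promoters, none of them of a called gene.

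Markers that divide fat progenitors into committed and less committed cells were split. Of 18 committed preadipocyte genes tested, 6 were called higher in APCs and 1 higher in SMCs, against 3.67% and 11.4% of all genes. The median log2 difference was 0.77. Ebf2, a factor of the preadipocyte lineage, was at 3427, 3788, 3745 and 3643 in APCs and 436, 244, 579 and 414 in SMCs, and Apoe, an apolipoprotein, at 39993, 48412, 46662 and 40856 and 6068, 4979.9, 7767 and 6381 (log2 differences 3.19 ± 0.19 and 2.82 ± 0.12). Col15a1, a collagen of the vessel wall and its neighbours, was among the most abundant transcripts of APCs, at 112855, 117782, 119318 and 101349 against 18347, 10553, 21173 and 18405 in SMCs, and Col4a1, a basement membrane collagen, averaged 63972 ± 1611 against 28197 ± 1549. Zfp423, a zinc finger factor of committed preadipocytes, was the exception, at 395, 345, 405 and 309.5 in APCs and 1400.4, 1331, 1025 and 1238 in SMCs (log2 difference 1.78 ± 0.11, higher in SMCs). Dlk1, the preadipocyte factor that holds back differentiation, was abundant in both, at 27085, 34481, 26453 and 27411 in APCs and 24402, 30237, 24087 and 29807 in SMCs, with overlapping values and a log2 difference of 0.09 ± 0.11 (adjusted p = 0.542; 95% interval from -0.15 to 0.33), and a sign that turned under quantile normalization and by DESeq2.

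The Dpp4-positive interstitial progenitor is known as an upstream, less committed cell of the fat depot. Of 20 genes on its list, 8 were called higher in SMCs and 2 higher in APCs, against 11.4% and 3.67% of all genes. The median log2 difference was -0.50. Pi16, a peptidase inhibitor and its leading marker, was at 718, 716, 665 and 761 in APCs and 4412, 4991, 4545 and 5536 in SMCs (log2 difference 2.76 ± 0.08, adjusted p = 1.81e-10), below the 11573 ± 679 of FIPs. Dpp4 itself, a surface peptidase, was at 53.2, 34.2, 32.9 and 89.9 in APCs and 345, 321, 450.5 and 241 in SMCs, against 2053 ± 275 in FIPs and 8805 ± 405 in MLCs. Anxa3, an annexin, and Ackr3, a scavenging chemokine receptor, were also higher in SMCs (log2 differences 2.12 ± 0.15 and 1.35 ± 0.11). Tnfaip6, a hyaluronan-binding protein, and Fap, fibroblast activation protein, were the 2 higher in APCs (log2 differences 2.77 ± 0.20 and 1.22 ± 0.09).

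Genes of mesothelium, the epithelium that covers the fat pad, were higher in SMCs. Of 20 tested mesothelial genes, 17 were called higher in SMCs, against 11.4% of all genes (median log2 difference -5.54). None was called higher in APCs (3.67% of all genes) by limma or edgeR, although 2 were at an unadjusted p under 0.05 by limma. Without APCs replicate 4 the counts were 17 and 0. Upk3b (chr5:136038496-136044993), a uroplakin of mesothelial surfaces, was at 32.1, 21.1, 30.7 and 46.7 in APCs and 4022, 3278, 4311 and 2503 in SMCs, a log2 difference of 6.73 ± 0.22 (SE; limma adjusted p = 3.42e-10). Msln, mesothelin, was at 21.1, 4.03, 10.01 and 6.92 in APCs and 640.2, 641, 687 and 596 in SMCs, and Krt19, a keratin, at 8.45, 6.04, 17.9 and 55.3 and 1434, 1344, 1734 and 1058. The SMC libraries were above every APC library in all 3 genes, by far.

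In the MLC libraries, sorted as mesothelial-like, the same genes stood much higher, and the SMC level was a varying share of the MLC level. The SMC mean was 4.45% of the MLC mean for Msln, 8.70% for Upk3b, 8.77% for Lrrn4, 7.84% for Krt19 and 13.4% for Pkhd1l1. For Ezr, ezrin, a linker of membrane and actin, it was 19.5% (2472, 2487, 2619.7 and 2388 in SMCs, 90.4, 87.6, 87.2 and 125 in APCs), and for Nkain4, a membrane protein, 33.1%. Among the keratins, Krt18 was at 47.4, 28.8, 36.3 and 17.4 in SMCs, 2.42% of the MLC mean, and rested on 3 or fewer reads in all 4 APC libraries together. Muc16, a mesothelial mucin, also rested on 3 or fewer reads in APCs and was at 37.9, 54.4, 91.8 and 34.7 in SMCs. Wt1, a transcription factor of mesothelium, went with neither pattern: it averaged 3996 ± 179 in APCs and 3023 ± 468 in SMCs, a log2 difference of 0.41 ± 0.09 higher in APCs. The summed level of the 22 genes on the list was 6075 to 6598 in APCs, 20926 to 30851 in SMCs and 217222 to 227026 in MLCs. In 14 of the 17 called members SMCs replicate 3 was the highest SMC library, and in 14 replicate 4 was the lowest. Over the 887 genes called higher in SMCs with an SMC mean of at least 100, these counts were 289 and 337. What part cells or RNA of the mesothelium had in the SMC values was not tested.

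**Figure D3:**
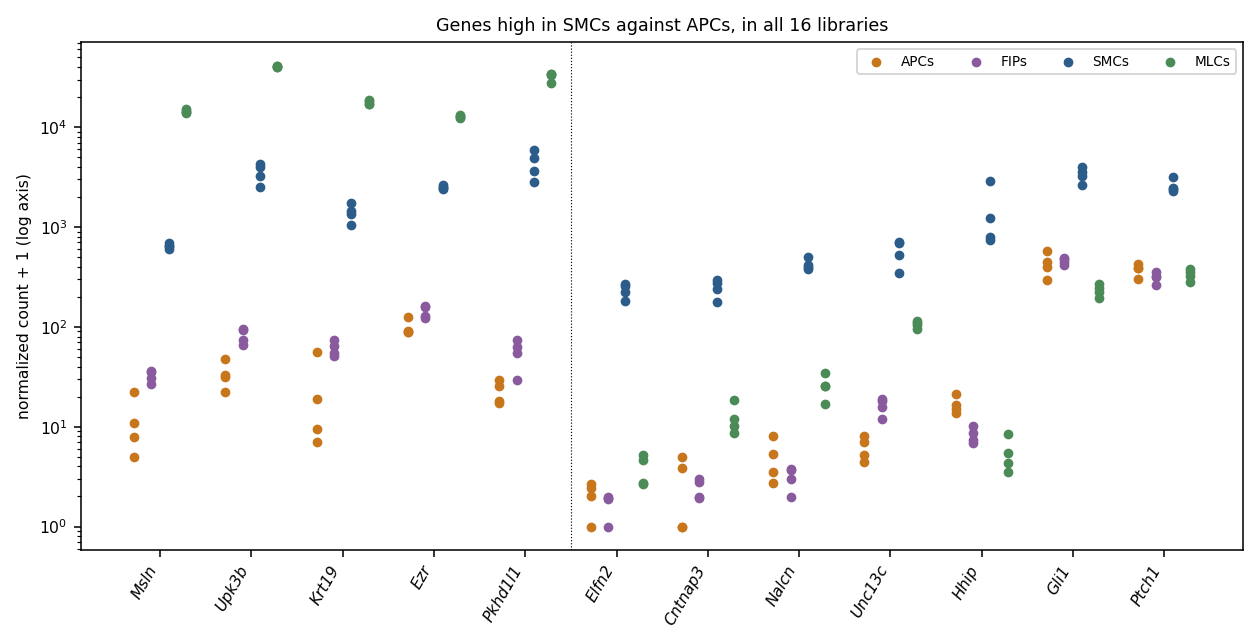
Normalised counts (value + 1, log axis) of genes higher in SMCs than in APCs, shown in all 16 libraries, with 1 point per library, in APCs, FIPs, MLCs and SMCs. The 5 genes left of the dotted line, among them Upk3b (40551 ± 618 in MLCs, SD), are highest in MLCs with SMCs next, and the 7 to its right, among them Hhip, Gli1 and Nalcn, are highest in SMCs.

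Several genes higher in SMCs were not at their highest in MLCs. Casq2 averaged 201 ± 175 in SMCs and 3.41 ± 1.55 in MLCs, Kcnma1 290.5 ± 50.3 and 2.50 ± 1.72, Ednra 1976 ± 678 and 21.4 ± 5.14, and Elfn2, a membrane protein with leucine-rich repeats, 231 ± 36.98 and 2.84 ± 1.31 (SD, n = 4 each). Acta2 was at 1428 ± 231 in MLCs, below its level in SMCs, whereas Myh11 was at 1288 ± 79.9 there, close to its SMC mean, and Pdlim3 at 1646 ± 122.

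Markers of other cells were low or mixed. Of 14 endothelial genes tested, 7 were called higher in APCs and 4 higher in SMCs, against 3.67% and 11.4% of all genes. Pecam1, the pan-endothelial adhesion molecule, was at 146, 79.6, 97.9 and 83.001 in APCs and 13.7, 45.9, 8.54 and 54.2 in SMCs, and Plvap, a protein of fenestrated vessels, at 103, 84.6, 72.9 and 98.6 and 10.5, 39.5, 29.9 and 5.11, with the higher values in APCs. Cdh5, an endothelial cadherin, went the other way, at 186, 62.4, 112 and 137 in APCs and 1537, 2270.1, 1330.1 and 1653 in SMCs, against 129 ± 50.5 in MLCs, and so did Kdr, a receptor of vascular growth factor, at 253, 145, 222 and 208 and 839, 816, 766 and 883. The summed endothelial level was 3427 to 4061 in APCs and 5564 to 6509 in SMCs. Ptprc, which marks all leukocytes, stayed below 10 in each APC and SMC library, and 8 of 14 macrophage genes, among them Adgre1 and C1qa, did not pass the filter on low values. Csf1r, a receptor of the myeloid lineage, was higher in SMCs (27.05, 23.2, 23.6 and 41.5 in APCs, 307, 231, 316 and 179.8 in SMCs) and higher still in MLCs, at 2210.5 ± 191. Of 4 tested Schwann cell genes 3 were called higher in SMCs, against 11.4% of all genes. They were led by Mbp, a myelin protein (8.45, 6.04, 12.9 and 17.3 in APCs, 440.1, 287, 457 and 254 in SMCs), again with a higher level in MLCs (3332 ± 62.8). Of the other marker lists, 1 lymphocyte and 3 erythroid genes passed the filter and none was called by limma or edgeR, nor was any at an unadjusted p under 0.05. Of 3 tested skeletal muscle genes and 1 of the epididymal epithelium, 1 each was called higher in SMCs, against 11.4% of all genes. Both calls rested on low values and were lost under quantile normalization. They were also lost without APCs replicate 4 and SMCs replicate 3 together, and edgeR called no skeletal muscle gene. The skeletal muscle and epididymal lists summed to 151 to 265 and 32.6 to 79.0 in SMCs. In APCs the sums were 72.6 to 130 and 6.92 to 12.1. What part other cells had in the differences was not tested.

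Hedgehog signalling is read out by its own targets: the pathway raises the transcription of its receptor Ptch1, of its effector Gli1 and of its inhibitor Hhip. Those 3 genes, of 10 on the list, were called higher in SMCs, against 11.4% of all genes (median log2 difference -0.51). None was called higher in APCs by limma or edgeR (1 at an unadjusted p under 0.05), against 3.67% of all genes. Hhip (chr8:79965850-80058060), which binds and traps the ligand, was at 12.7, 14.1, 20.02 and 15.6 in APCs and 2869, 1239, 747 and 786 in SMCs, a log2 difference of 6.20 ± 0.35 (SE; limma adjusted p = 2.27e-08). SMCs replicate 1 was the highest, and the other SMC libraries were still far above APCs. Gli1 was at 572, 398, 445 and 292 in APCs and 3247, 4001, 2615 and 3574 in SMCs (log2 difference 2.998 ± 0.18), and Ptch1 at 390.5, 385, 426 and 303 and 2281, 3179, 2393 and 2445 (log2 difference 2.77 ± 0.12). All 3 were lower in MLCs and FIPs than in SMCs, with Gli1 at 232 ± 30.5 in MLCs and 456 ± 35.6 in FIPs.

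The rest of the pathway differed little. Boc, a coreceptor, averaged 4458 ± 137 in APCs and 8573 ± 631 in SMCs and fell just short of a call (log2 difference 0.94 ± 0.07). The signal transducer Smo (3243 ± 171 in APCs, 3591 ± 80.01 in SMCs) and the effectors Gli2 and Gli3, with log2 differences of 0.26 ± 0.10 (higher in SMCs) and 0.09 ± 0.10 (higher in APCs), were at like levels in both. Gas1 and Cdon, which help the ligand to bind, were abundant in both, at 28671 ± 1616 and 10869 ± 594 in APCs and 24765 ± 992 and 12194 ± 1127 in SMCs.

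Of 20 tested Wnt pathway genes, 9 were called higher in SMCs (11.4% of all genes) and 1 higher in APCs (3.67% of all genes), where 75.7% of the calls over all genes are on the SMC side (median log2 difference of the list -0.86), and 8 against 1 without APCs replicate 4. Among the ligands, Wnt5a, of the branch that does not act through beta-catenin, was at 2579, 2682, 2951 and 2751 in APCs and 8088, 10110.4, 7112 and 9979.9 in SMCs (log2 difference 1.67 ± 0.11, adjusted p = 6.65e-08), and Wnt9a at 329.6, 326, 261 and 304 and 997, 1111, 1048 and 912. Wnt2 was low in both, at 5.92, 4.03, 10.7 and 15.6 in APCs and 53.7, 66.2, 78.996 and 47.003 in SMCs. Wnt11 was the 1 gene called higher in APCs (258, 324, 299.5 and 379 against 132, 104, 186 and 143). Secreted antagonists were on the SMC side as well. Dkk3, of the Dickkopf family, was at 227, 206, 202 and 269.8 in APCs and 2192, 1899, 1638 and 1695 in SMCs (log2 difference 3.03 ± 0.12), and Sfrp1, which binds Wnt proteins, averaged 18852 ± 1882 and 34333 ± 4069.7, a log2 difference of 0.86 ± 0.10 that was short of a call. Of the R-spondins, which strengthen Wnt signals, Rspo1 was higher in SMCs by 0.86 ± 0.10 and Rspo3 higher in APCs by 0.99 ± 0.10, neither of them called. Rspo3 reached the size for a call, at up to 1.05, without APCs replicate 1 or 2 and without SMCs replicate 1 or 4.

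Of 28 tested BMP and TGF-beta genes, 11 were called higher in SMCs and 2 higher in APCs, against 11.4% and 3.67% of all genes. The median log2 difference was -0.38, and the counts were the same without APCs replicate 4. Bmp4, a ligand that commits cells to the fat lineage, was at 54.1, 57.4, 50.04 and 41.5 in APCs and 493, 519, 342 and 443 in SMCs (log2 difference 3.11 ± 0.16, adjusted p = 1.35e-08). Bmp6 was at 30.4, 30.2, 22.9 and 13.8 in APCs and 221, 326, 177 and 263 in SMCs, and Bmp5 at 94.7, 92.6, 117 and 107 and 363, 426, 331 and 405. All 3 ligands were higher in each SMC library than in any APC library. Of the TGF-beta ligands, Tgfb2 and Tgfb3 were higher in SMCs by log2 differences of 1.21 ± 0.09 and 1.35 ± 0.10. Inhba, the activin subunit, was at 24.5, 24.2, 29.3 and 125 in APCs and 561, 794, 687 and 612 in SMCs, with APCs replicate 4 the highest of the APCs.

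Antagonists in the families were divided. Chrdl1, a chordin-like inhibitor of BMPs, was at 668, 848, 672 and 925 in APCs and 3788, 4939, 3115 and 4777 in SMCs (log2 difference 2.41 ± 0.15). Bmper, which binds BMPs outside the cell, was the largest difference of the list in favour of APCs, at 6232, 7998, 7200.3 and 8153 in APCs and 652, 522, 803 and 544 in SMCs (log2 difference 3.56 ± 0.13, adjusted p = 7.77e-10). Fst, follistatin, which binds activin, was the second, at 1329, 1464, 1593 and 1783 in APCs and 578, 719, 581 and 472 in SMCs. Of the targets of BMP signals, Id1 overlapped between the populations (183, 229, 192 and 285 in APCs, 227, 272, 412 and 236 in SMCs), whereas Id3 averaged 5699.5 ± 755 in APCs and 2905 ± 454 in SMCs, a log2 difference of 0.98 ± 0.12 higher in APCs, just short of a call. It passed without APCs replicate 1 (1.04), APCs replicate 2 (1.01) or SMCs replicate 3 (1.06).

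Growth factors of the PDGF, FGF and IGF families gave 5 calls higher in SMCs and 1 higher in APCs among 23 tested genes, against 11.4% and 3.67% of all genes, so that the 1 is near the background share (median log2 difference -0.21). Pdgfa, a ligand of Pdgfra, was at 85.4, 112, 84.4 and 112 in APCs and 319, 332, 235 and 288 in SMCs, and Pdgfc differed by 1.75 ± 0.12. Fgf1 was at 121, 90.6, 101 and 89.9 in APCs and 1121, 946, 1270.3 and 743 in SMCs, with 11801 ± 1056 in MLCs. Fgf10, a ligand known to promote fat formation, was the 1 gene higher in APCs, at 4816, 5598, 5152 and 6018 against 1289.8, 657, 1097 and 795 in SMCs (log2 difference 2.53 ± 0.17, adjusted p = 1.11e-07), and its receptor gene Fgfr2 was higher in APCs by 0.92 ± 0.06, short of a call. Of the IGF-binding proteins, Igfbp6 was at 1099.6, 1142, 1289 and 1786 in APCs and 7567, 9502, 7839.8 and 9203 in SMCs, and Igfbp2 at 25.4, 19.1, 7.15 and 62.3 and 586, 583, 658 and 456.

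Of 16 Notch pathway genes, none was called higher in SMCs by limma or edgeR (3 at an unadjusted p under 0.05). By limma 3 were called higher in APCs, against 3.67% of all genes (11.4% for SMCs), with a median log2 difference of 0.15. They were the receptors Notch1 and Notch3 and the target Heyl. Notch1 was at 4195, 4747, 4053 and 2673 in APCs and 843, 713, 901 and 882 in SMCs (log2 difference 2.20 ± 0.15), with APCs replicate 4 the lowest APC library. Heyl was at 485, 447, 517 and 422 in APCs and 254, 212, 158 and 127 in SMCs. Notch2 was higher in SMCs by 0.43 ± 0.09, too little for a call. Without APCs replicate 4, 1 gene of the list was also called higher in SMCs. Of 19 imprinted genes of fetal growth, none was called higher in SMCs by limma or edgeR (5 at an unadjusted p under 0.05). The calls were 3, all higher in APCs, against 3.67% of all genes (11.4% for SMCs), with a median log2 difference of 0.06. They were Mest, which marks expanding fat (21484, 24957, 21746 and 25516 in APCs, 6748, 6844, 6226 and 7552 in SMCs), the non-coding H19 (96910.2, 107887, 99638 and 95832 in APCs, 38874, 35887, 37393 and 41109.9 in SMCs) and Asb4 (230.2 ± 24.7 and 28.2 ± 15.1). Igf2, the growth factor of the network, was higher in APCs by 0.53 ± 0.09 and not called, and Plagl1, a factor that controls part of it, higher in SMCs by 0.65 ± 0.07.

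The matrix genes differed in direction by member. Of 34 fibrillar and elastic matrix genes, 8 were called higher in SMCs (11.4% of all genes) and 2 higher in APCs (3.67% of all genes, a share near that of the list; median log2 difference -0.22), and without APCs replicate 4 the counts were 8 and 1. Tnc, tenascin-C, was at 188, 173, 142 and 533 in APCs and 3497, 3142, 3892 and 3509.9 in SMCs (log2 difference 3.97 ± 0.31), with APCs replicate 4 the highest APC library. Col12a1, a collagen that links fibrils, was at 3235, 3118, 3183 and 4850.4 in APCs and 18550.1, 19481, 16316 and 16725 in SMCs, and Col14a1, of the same class, averaged 21317 ± 995 and 55663 ± 5395. Col1a1 and Col1a2, the chains of type I collagen, were higher in SMCs by 1.15 ± 0.20 and 1.001 ± 0.17, at the edge of a call. Col1a2 lost it without APCs replicate 1 (-0.98, APCs minus SMCs), APCs replicate 2 (-0.99), SMCs replicate 1 (-0.97) or SMCs replicate 4 (-0.97), and by edgeR (-0.98), DESeq2 (-0.99) and equal totals (-0.97). Under quantile normalization Col1a2 came out at -7.1e-15, which is 0 to rounding. A gene that holds the same rank in every library is given the same value there, so that setting could not show its difference. The lowest adjusted p of Col1a2 over its alternatives was 7.28e-30 (DESeq2). Col1a1 lost its call under quantile normalization (-0.48). Ccn2, a matrix protein induced by TGF-beta, averaged 299.7 ± 206 in APCs and 1575 ± 299 in SMCs. Postn, periostin, was on the APC side, at 102413, 109905, 113202 and 123865 against 57480.2, 49160.1, 54319 and 57328 in SMCs, but below the size for a call, at 0.99, without APCs replicate 4 or without SMCs replicate 2. Also higher in APCs was Thbs1, thrombospondin-1, with averages of 24867 ± 3710.0 and 8424 ± 3156, whereas its relative Thbs2 was higher in SMCs (6910.5 ± 2347 and 15039 ± 3228).

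Basement membrane genes gave 7 calls higher in SMCs and 1 higher in APCs among 20, against 11.4% and 3.67% of all genes. The 1 is near the background share. The median log2 difference was -0.73, and without APCs replicate 4 the counts were 7 and 2. Col4a3 and Col4a4, chains of a specialised type IV collagen that are made from 1 shared promoter region, moved as a pair. Col4a3 was at 336, 316, 343 and 318 in APCs and 2372, 3471, 2521 and 2858 in SMCs, and Col4a4 at 505, 495, 499.7 and 484 and 4380.1, 6573, 4375 and 5586 (log2 differences 3.08 ± 0.11 and 3.37 ± 0.12). In both SMCs replicate 2 was the highest. Npnt, nephronectin, the ligand of the integrin of Itga8, was at 401, 432, 477 and 598 in APCs and 1871, 1803, 1909 and 1769 in SMCs, the opposite direction to Itga8. Egfl6 and Lama5 were also higher in SMCs (log2 differences 5.04 ± 0.42 and 3.02 ± 0.24), with MLC means of 1475 ± 88.5 and 3975 ± 260.0 above the SMC means of 218 ± 77.04 and 439 ± 119. Lama4, the laminin chain of vessel walls, was the 1 gene of this list higher in APCs, since Col4a1 is counted above with the committed preadipocyte genes. It was at 18824, 19480.5, 19229 and 16949.5 against 8602, 5971, 8102 and 7065 in SMCs.

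Of 20 chemokine and cytokine genes tested, 9 were called higher in APCs and 4 higher in SMCs, against 3.67% and 11.4% of all genes. The median log2 difference was 0.79, and without APCs replicate 4 the counts were 8 and 3. Il6, a cytokine, was at 1440.2, 1512, 2348 and 2511 in APCs and 349.6, 234, 508 and 351 in SMCs (log2 difference 2.44 ± 0.22, adjusted p = 1.91e-06). Ccl2 and Ccl7, which draw monocytes, averaged 3736 ± 1038 and 4224 ± 945 in APCs and 857 ± 329 and 790.0 ± 215 in SMCs. Cxcl1, which draws neutrophils, was at 18301, 17756, 24451 and 26026 in APCs and 5007, 5318, 6994 and 5987 in SMCs, and Cxcl10, an interferon-induced chemokine, at 5789, 8910.0, 8695 and 9625 and 1668, 1419, 2252 and 2117. Cxcl12, which retains stem and immune cells, averaged 9337 ± 1198 and 4163 ± 323. On the SMC side stood Il33, an alarmin, at 497, 554, 555 and 882 in APCs and 3528, 3653, 2763 and 3772 in SMCs (log2 difference 2.49 ± 0.16), and the B cell chemokine Cxcl13, at 5.07, 5.04, 3.57 and 8.65 in APCs and 77.9, 121, 171 and 25.5 in SMCs. Nfkbia and Tnfaip3, which are induced by NF-kB and restrain it, were higher in APCs by 0.70 ± 0.08 and 0.80 ± 0.10, both short of a call.

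Of 10 complement genes tested, 5 were called higher in SMCs, against 11.4% of all genes (median log2 difference -1.17). None was called higher in APCs by limma or edgeR (3 at an unadjusted p under 0.05), against 3.67% of all genes. C7, a component of the membrane attack complex, was at 423, 363, 402 and 479 in APCs and 2012, 1929.7, 1817 and 2528 in SMCs, and C2, an early protease, at 552, 623, 656 and 903 and 3001, 3191, 3585 and 2762. Cfb, a protease of the alternative pathway, differed by 1.85 ± 0.14. MLCs held more C2 (18802 ± 435) and Cfb (4547 ± 368) than SMCs, and less C7 (58.4 ± 6.42). Of 13 retinoid genes, 6 were called higher in SMCs and 1 in APCs, against 11.4% and 3.67% of all genes (median log2 difference -0.82). The enzymes on that list that make retinoic acid, Aldh1a1 and Aldh1a3, were higher in SMCs by 1.22 ± 0.12 and 1.20 ± 0.12. Aldh1a2, which does the same and is counted here as a mesothelial marker, was at 26.2, 22.2, 15.7 and 221 in APCs and 1848, 1565, 1435 and 1501 in SMCs. Crabp2, which carries retinoic acid to the nucleus, was at 21.1, 13.1, 18.6 and 8.65 in APCs and 121, 177, 74.7 and 142 in SMCs. Cyp26b1, which degrades retinoic acid, was at 52.4, 74.5, 58.6 and 76.1 in APCs and 236, 949, 203 and 168 in SMCs, where replicate 2 stood far above the other 3.

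Of 18 cholesterol synthesis genes, 12 were called higher in APCs, against 3.67% of all genes, and 12 without APCs replicate 4. None was higher in SMCs (11.4% of all genes) by limma or edgeR, also at an unadjusted p under 0.05. The median log2 difference was 1.14. Hmgcs1, an early enzyme of the pathway, was at 7118, 7704, 6933 and 7316 in APCs and 2664, 2758, 2980.5 and 2778 in SMCs (log2 difference 1.38 ± 0.06, adjusted p = 4.9e-09). Insig1, a sterol sensor that is itself a target of the pathway, was at 3978, 3977, 3653 and 3294 in APCs and 1024, 1188, 1221 and 1166 in SMCs. The 8 values of each gene form 2 tight groups. Idi1 and Sqle, enzymes of the middle of the pathway, differed by 1.98 ± 0.15 and 1.33 ± 0.08.

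Cell cycle genes leaned to APCs with small differences, at a median log2 difference of 0.63. Of 31 tested, 2 were called, Rrm2 and Ccna2, both higher in APCs, against 3.67% of all genes. By limma none was higher in SMCs at an unadjusted p under 0.05, and 28 were higher in APCs. Rrm2, a subunit of ribonucleotide reductase, was at 688, 807, 691 and 659 in APCs and 299, 361, 376 and 319 in SMCs, and Ccna2, cyclin A2, averaged 1191 ± 97.9 and 583 ± 102. Ccna2 lost the call without APCs replicate 2 (0.998), SMCs replicate 2 (0.98) or SMCs replicate 4 (0.98). Of 21 genes induced by tissue dissociation, 2 were called higher in APCs (Myc and Egr2) and 1 higher in SMCs (Hspa1b). The shares over all genes were 3.67% and 11.4%. Fos averaged 151176 ± 8081 in APCs and 111916 ± 7885 in SMCs (log2 difference 0.43 ± 0.12). Each of those 3 calls was lost without at least 2 of the libraries: Myc fell to 0.91, 0.99, 0.94 and 0.95 without APCs replicates 3 and 4 and SMCs replicates 1 and 2, Egr2 to 0.99 and 0.95 without APCs replicate 3 and SMCs replicate 4, and Hspa1b was at -0.99 and -0.92 without APCs replicate 2 and SMCs replicate 4. No gene of 81 for ribosomal proteins was called by limma or edgeR, although 12 were higher in SMCs and 4 higher in APCs at an unadjusted p under 0.05. Of 12 genes encoded by the mitochondrial genome limma called none (7 higher in APCs at an unadjusted p under 0.05) and edgeR 1. Of 89 nuclear genes of the respiratory chain 1 was called higher in APCs and 2 higher in SMCs. Both are below the shares over all genes (3.67% and 11.4%). Those 3 respiratory chain calls were all lost without APCs replicate 4, and at an unadjusted p under 0.05 limma had 55 of the 89 higher in APCs and 3 higher in SMCs (median log2 difference 0.31). Rn45s, the precursor of ribosomal RNA, differed between the groups. It was at 15858, 17648, 17211 and 12009 in APCs and 65558, 29937, 77905 and 66195 in SMCs, with replicate 2 the lowest of the SMCs. Malat1, a nuclear RNA, was at 16678, 10112, 11946 and 8468 in APCs and 30537, 29219, 39995 and 28509 in SMCs. Neither transcript measures RNA quality directly, and the part of RNA quality in the other differences was not tested.

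**Figure D4:**
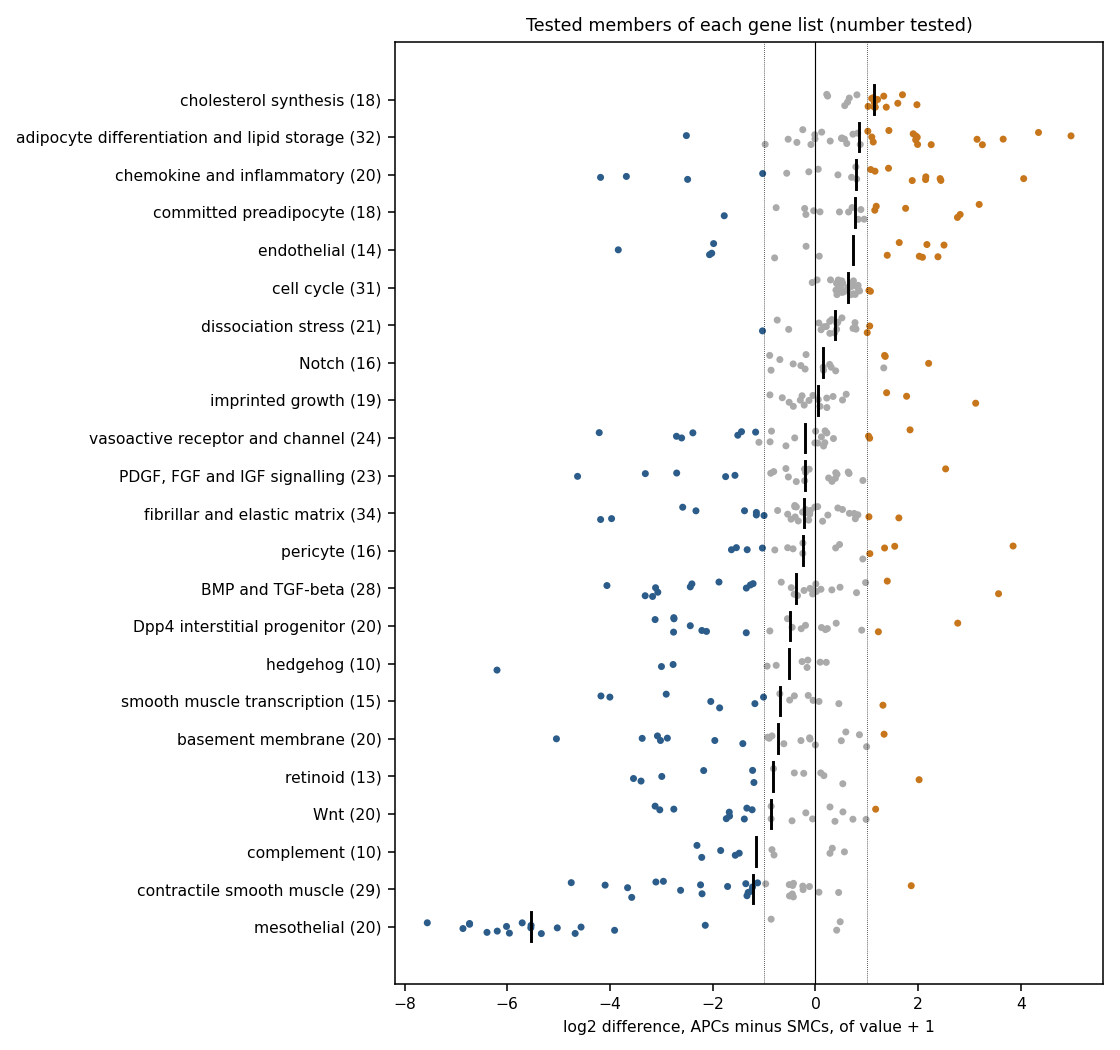
Log2 difference (APCs minus SMCs) of each tested member of the gene lists, 1 point per gene. Called genes are coloured by the higher side and the others are grey, with a tick at the median of the list and dotted lines at the size needed for a call. Mesothelial genes reach furthest to the SMC side (median -5.54), and the cholesterol synthesis list lies on the APC side (median 1.14).

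APCs replicate 4 held raised levels of a group of genes that belong to the SMC side. Among genes at 200 or more in that library, the 12 with the largest ratio of it to the highest of the other 3 were Cxcl14, Il1rl1, Col8a1, S100a4, Cfd, Ccn5, Acta2, Emb, Aldh1a2, Vdr, Cemip and Tagln, all of them called higher in SMCs. Cxcl14, a chemokine, was at 51.6, 46.3, 45.04 and 1707 in APCs replicates 1 to 4 and at 2531, 1554, 3982 and 1358 in SMCs, so that APCs replicate 4 lay inside the SMC range. Il1rl1, the receptor of Il33, was at 14.4, 8.06, 10.01 and 384 in APCs and 399, 232, 653 and 166 in SMCs, Cfd at 38.03, 10.1, 12.9 and 453 and 606, 313, 858 and 217, and S100a4, a calcium-binding protein of fibroblasts, at 29.6, 20.1, 21.4 and 507 and 684, 429, 1206 and 253. Col8a1, a collagen of vessel walls, was at 12.7, 8.06, 10.01 and 246 in APCs and 447, 305, 818 and 324 in SMCs, where the raised APC library stayed below all SMC libraries.

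On the linear scale, with the mean of APCs replicates 1 to 3 at 0% and the SMC mean at 100%, APCs replicate 4 lay at 71.9% for Cxcl14, 106% for Il1rl1, 90.5% for Cfd, 69.2% for Tagln, 51.0% for Cnn1 and 50.5% for Acta2. It lay at 12.8% for Aldh1a2 and 10.9% for Tnc, and near 0 for other genes of the SMC side: -1.87% for Myh11, 1.16% for Pdlim3, -1.88% for Pgm5, 0.534% for Upk3b and -0.135% for Pkhd1l1. Of 883 genes called higher in SMCs by the fit without that library, with an SMC mean of at least 100, 108 (12.2%) lay past 25%. APCs replicate 1, placed the same way against the other 3 APC libraries, lay past 25% for 85 of 916 genes (9.28%), and replicates 2 and 3 for 2 and 5. Genes of the APC side lay on both sides of 0: Notch1 at 47.4%, Plin1 at 16.2% and Pparg at -3.25%, and, further from SMCs than the other APC libraries, Cd36 at -41.0%, Il6 at -52.9%, Lpl at -55.5% and Fabp4 at -100.2%. Without APCs replicate 4 the log2 difference was 5.47 ± 0.28 for Cxcl14 (4.18 ± 0.93 with it), 4.78 ± 0.38 for Il1rl1 (3.52 ± 0.94), 2.86 ± 0.25 for Tagln (2.24 ± 0.49) and 4.61 ± 0.34 for Cnn1 (3.66 ± 0.73). Count tests were run on APCs replicates 1, 3 and 4 only, so they kept the raised library and left out replicate 2. These tests called 4 of the 12 genes by edgeR. They did not call 8 by edgeR and 10 by DESeq2, with edgeR adjusted p-values of 0.103 for Cxcl14 and 0.188 for Il1rl1. Over all alternatives the adjusted p of these 2 genes ran from 3.02e-10 to 0.219 and from 1.39e-07 to 0.396. Cnn1 and Tagln were not called by DESeq2 (adjusted p = 0.0596 and 0.08, the highest over their alternatives), and Acta2 was called by it with a smaller log2 difference of -2.30 (APCs minus SMCs). The source of these genes in APCs replicate 4 was not tested.

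**Figure D5:**
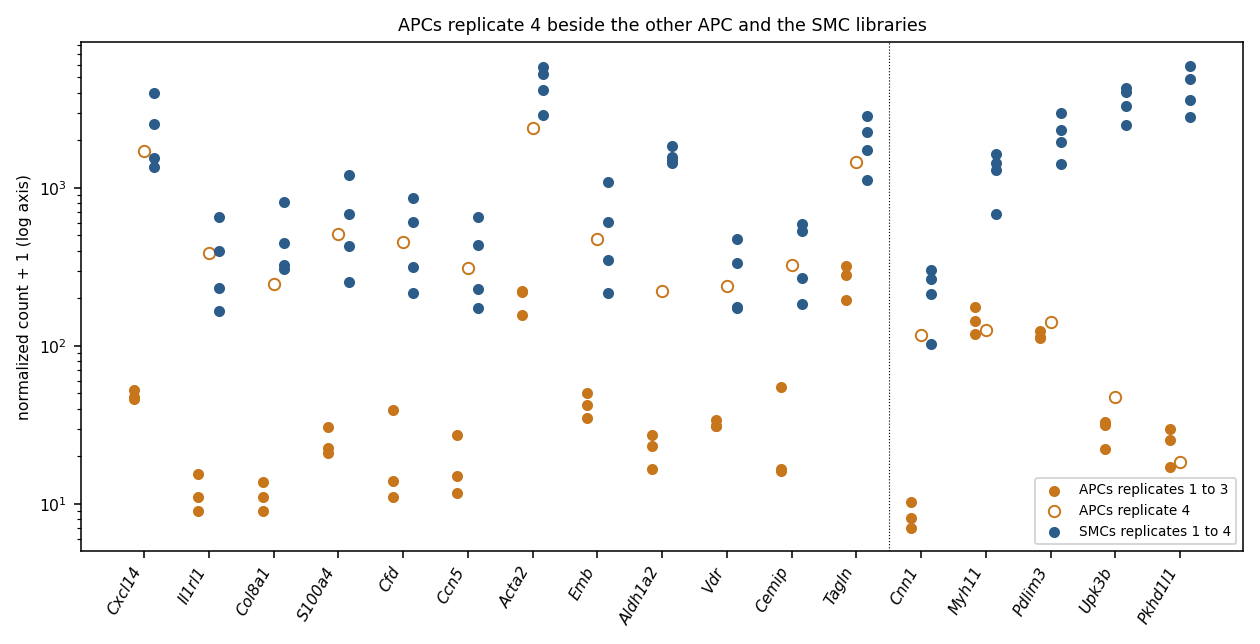
Normalised counts (value + 1, log axis) of the 12 genes most raised in APCs replicate 4 and, right of the dotted line, of 5 other genes of the SMC side, with 1 point per library and an open circle for APCs replicate 4. The open circles of Cxcl14 (1707) and Acta2 (2388) lie far above the other APC points, and those of Myh11 (125) and Pkhd1l1 (17.3) lie among them.

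Over all genes tested, the 12 largest differences in each direction that met the rule for named genes ranged from 6.39 to 7.56 on the log2 scale in favour of SMCs and from 3.68 to 4.98 in favour of APCs. Of the SMC genes, Pkhd1l1, Lrrn4, Upk1b, Upk3b and Krt19 were on the mesothelial list, and Dmkn, Dhrs9 and Tmem151a, which were on none, had MLC means of 3112 ± 263, 1452 ± 125 and 6134 ± 320.1, above their SMC means of 285 ± 99.9, 198 ± 82.6 and 643 ± 192. The other 4 were lower in MLCs than in SMCs. Nalcn, a sodium leak channel, was at 2.54, 7.05, 4.29 and 1.73 in APCs and 395, 504, 380.0 and 420.0 in SMCs, with 24.6 ± 7.13 in MLCs, and Unc13c, a protein of vesicle release, at 4.23, 6.04, 7.15 and 3.46 in APCs and 689, 702, 342 and 527 in SMCs, with 105 ± 8.94 in MLCs. Cntnap3, of the neurexin family, averaged 1.72 ± 2.04 in APCs and 245 ± 51.2 in SMCs, and Elfn2 1.03 ± 0.743 and 231 ± 36.98.

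Of the APC genes, Spon1 (chr7:113765998-114043375), the matrix protein F-spondin, was the most abundant, at 20562, 22884, 24207 and 22113 in APCs and 1000.3, 709, 1642 and 977 in SMCs (log2 difference 4.44 ± 0.18, adjusted p = 2.41e-09). Ccl11, eotaxin, which draws eosinophils, was at 2045, 2094, 2777 and 3079.7 in APCs and 154, 97.1, 254 and 124 in SMCs. Apln, the peptide hormone apelin, was at 1837, 1834, 1770.0 and 1935 in APCs and 179, 114, 156 and 132 in SMCs. These 3 code for secreted proteins. That the lowest APC library lay above the highest SMC library in each was a condition of the rule for named genes. Lgals12, a lectin of fat droplets, and Trarg1, a protein of glucose transporter traffic, averaged 205 ± 57.3 and 544 ± 20.4 in APCs and 13.2 ± 8.16 and 41.6 ± 19.3 in SMCs. Cd38, an enzyme that consumes NAD, Serpina3f, a protease inhibitor, Fam83a and Epor, the erythropoietin receptor, made up the rest with Plin1, Car3 and Vtn, with log2 differences of 3.90 ± 0.22, 4.31 ± 0.28, 3.78 ± 0.28 and 3.71 ± 0.41.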

How the data were processed

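RNA-seq libraries of sorted APCs and SMCs, 4 each, were compared. The authors deposited 1 table of a normalized signal, in which each gene's read count is scaled by its library's factor, with 27179 rows for 16 libraries; 1275 rows without a symbol held 0.104% to 0.134% of each library used. Tools listed per the submitters' processing notes are DESeq2 1.6.3, HISAT2 2.0.1, Trim Galore 0.4.1 and featureCounts 1.4.6, and builds GRCm38 and mm10, with no roles. How strand and multiply matching reads were treated is not stated in the labels, so overlapping genes and near-identical copies may share reads. Columns headed SMLCs were taken as the samples titled SMCs with the same number, since the other 12 columns matched the other titles.

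Genes that reached 10 in 4 or more of the 8 libraries were tested with limma 3.58.1 in R 4.3.3 (eBayes with a trend, two-sided, Benjamini-Hochberg over 14270 genes) on log2(value + 1), which understates the change of low genes. Each difference is given with the SE of the fit. The fit was tested on simulated data. The steps between low values gave whole reads, within 0.01, for 100% of values. As alternatives, edgeR 4.0.16 and DESeq2 1.42.0 were run on these reads. APCs replicate 2 was left out of them because its step of 1.007 lies near 1, although its values too were whole multiples of that step. No library was counted as a copy, since the chi-square between 2 libraries of a population, over its degrees of freedom, was 7.45 to 28.7.

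The members and gene lists were chosen with earlier results of these data known. Genes were named by a rule: the 12 largest calls in each direction with a mean of at least 100, no overlap and a symbol that is not a predicted one, up to 5 genes of each list by adjusted p, a panel of 9, and the 12 genes most raised in APCs replicate 4 with at least 200 there. The other genes named, among them Casq2, Cnn1, Myl9, Il6, Bmp6 and Pecam1, were chosen after their values were seen. A few genes of the lists are counted but not reported here. Coordinates are 1-based RefSeq spans on GRCm38, matched by Entrez number. Alternatives were other pseudocounts, filters and scalings, a model of all 16 libraries, a replicate block, leaving out libraries, and a promoter window of 250 bases.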

Additional observations from a re-analysis of the deposited data

Results flagged for a closer look

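For the 202 genes whose difference the text reports, a library counted as far from the other 3 of its population when its gap to the nearest of them, over the range, exceeded Dixon's 95% critical value. This picked out 31 of 404 groups of 4, where chance alone gives about 1 in 20. In 24 of the 31 the library was APCs replicate 4, but 12 of these genes were chosen for being raised in it, so their count says nothing. Without the APC values of those 12, 19 of 392 groups were picked out, a share close to 1 in 20, and 12 of the 19 were APCs replicate 4. Some genes of these groups, among them Cnn1, Inhba, Kcnj8, Scd1 and Thbs2, were chosen after their values were seen. Selection may therefore enter this count as well. No explanation was tested.

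In 23 genes APCs replicate 4 was far above the other APC libraries. They were Acta2 at 2388, Aldh1a2 at 221, Anxa3 at 584, Ccn5 at 309.5, Cemip at 323, Cfb at 434, Cfd at 453, Cnn1 at 116, Col12a1 at 4850.4, Col8a1 at 246, Cxcl14 at 1707 and Emb at 472. Ezr was at 125, Il1rl1 at 384, Il33 at 882, Inhba at 125, Kcnj8 at 152, S100a4 at 507, Scd1 at 2405, Tagln at 1463, Thbs2 at 10394, Tnc at 533 and Vdr at 237. In Cebpa (2824, others from 3278 to 3364) it was far below them.

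APCs replicate 2 stood apart for Cidec (19.1, others from 33.6 to 36.3), Dlk1 (34481, others from 26453 to 27411) and Sqle (1712, others from 1503 to 1533). SMCs replicate 3 stood apart for Aldh1a1 (1806, others from 2001 to 2015), Pparg (196, others from 73.6 to 91.6) and Wt1 (3723, others from 2741 to 2842), and SMCs replicate 2 for Cyp26b1 (949, others from 168 to 236).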

How the results depend on the processing

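Of 202 genes whose difference is reported, 170 were called. Over 19 alternatives 148 of them kept the call in each fit that tested them, 22 lost it in at least 1, and 4 uncalled genes gained it in at least 1. Dlk1 changed sign by DESeq2 (-0.0041) and under quantile normalization (-0.026), as did Ly6c1 (0.12) and Rgs5 (0.060) under quantile normalization; none was called. Leaving out 1 library gave 2070 to 2233 calls, 493 to 550 higher in APCs and 1557 to 1719 higher in SMCs. The pericyte list then had 2 to 5 genes higher in APCs and the vasoactive list 1 to 3. Without both APCs replicate 4 and SMCs replicate 3 these were 2 and 1. A pseudocount of 8 also left 2 pericyte genes higher in APCs. A filter of 50, which tests fewer genes, gave 1034 genes higher in SMCs, 4 vasoactive genes higher in SMCs, and 2 genes higher in APCs on each of the pericyte, endothelial and mature adipocyte lists. Quantile normalization gave 890 genes higher in APCs and 1 Schwann gene higher in SMCs, and edgeR and DESeq2 each gave 2 chemokine genes higher in SMCs; the cause was not tested. Same-numbered APC and SMC libraries correlated at 0.004 to 0.08 in their deviations, and differently numbered ones at -0.137 to 0.078. The numbers were not taken as pairs, since the labels do not say that they pair libraries. These correlations do not show that the numbers are unrelated. The replicate block gave 530 and 1657 calls and changed no call of a reported gene. Depth limits low genes: SMCs replicate 3 and APCs replicate 4 are the shallowest, and intervals cover the spread between libraries only.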

Other observations

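Several abundant genes outside the lists also parted the populations, and they were chosen after their values were seen. Hmcn1, hemicentin-1, an extracellular matrix protein, was at 2013, 1793, 1785 and 1086 normalised counts in APCs replicates 1 to 4 and at 20663, 19528, 21909.6 and 18896 in SMCs (log2 difference 3.63 ± 0.15, SE; limma adjusted p = 2.41e-09). Cilp, a matrix protein of cartilage, was at 1201, 917, 1426 and 1691 in APCs and 10168, 11645, 9829.6 and 12968 in SMCs, and Fmod, fibromodulin, which binds collagen fibrils, at 417, 437, 449.7 and 557 and 5578, 5264, 4817 and 5099. Mgp, an inhibitor of vessel calcification, averaged 1169 ± 339.7 in APCs and 7027 ± 866 in SMCs (SD, n = 4 each). Each of these was higher in every SMC library than in any APC library. Hmcn1 and Mgp were near the APC level in MLCs, at 2233 ± 315 and 823 ± 40.97, Cilp was at 16.3 ± 8.55 there, and Fmod was higher in MLCs, at 17648 ± 913. Mme, the peptidase neprilysin, was at 109, 143, 108 and 145 in APCs and 2909, 3912, 1887 and 2774 in SMCs, with 143 ± 17.2 in MLCs.

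On the APC side, Agt, angiotensinogen, the source of angiotensin, was at 5016, 6338, 5895 and 5354 in APCs and 576, 458, 769 and 654 in SMCs (log2 difference 3.22 ± 0.13), and Enpep, a peptidase that cleaves angiotensin, at 6238, 6704, 7122 and 6912 and 736, 389.6, 643 and 674 (log2 difference 3.50 ± 0.16). Ptx3, a secreted pattern recognition protein, was at 5277, 4524, 7459.8 and 5689 in APCs and 512, 319, 1021 and 359.7 in SMCs, and Steap4, a metalloreductase of fat cells, averaged 9249 ± 1271 and 1079.7 ± 230.2.

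In 3 genes induced by interferon the values of the populations overlapped and 1 library of each stood highest. Ifi47, a GTPase of this response, was at 26.2, 68.5, 30.7 and 202 in APCs replicates 1 to 4 and at 26.3, 27.7, 32.03 and 127 in SMCs, and in MLCs and FIPs its 4 libraries were at 129, 342, 189.6 and 1136 and 19.8, 78.6, 26.7 and 219. Ifit1 was at 31.3, 187, 42.2 and 405 in APCs and 78.97, 76.8, 76.9 and 151 in SMCs, and Rsad2 at 13.5, 30.2, 26.5 and 111 and 37.9, 59.8, 29.9 and 136. In all 3 genes replicate 4 was the highest library of both populations. The genes were chosen after their values were seen, whether the replicate number marks a shared day or litter is not given in the labels, and the source of the pattern was not tested.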
